A study of Mus musculus with 6 samples.

Results

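Cd69, Cd40 and Cd274 encode surface molecules that appear on activated immune cells, and each was read here from 1 of the 74007 transcript rows of the data set. Whether further rows belong to the same genes could not be checked. The rows were chosen by their Ensembl transcript identifiers, ENSMUST00000032259_at for Cd69, ENSMUST00000017799_at for Cd40 and ENSMUST00000016640_at for Cd274, and all 3 were present. The choice was made with results of the comparison between LPS and unstimulated arrays in view, so the members' differences below are a description and carry no p-value. The names came with the identifiers when the rows were chosen. The gene table used here lists all 3 symbols among its 49997 but no Ensembl identifiers, so the pairing could not be checked against it.

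The cells were macrophages grown from the femoral marrow of female C57BL/6J mice aged 8 to 12 weeks on normal chow. The LPS group (3 arrays) was exposed on day 7 of culture to bacterial lipopolysaccharide, the ligand of TLR4, at 10 ng/mL for 4 h. The unstimulated group (Unstim, 3 arrays) received no stimulus, and both groups were kept in recombinant human M-CSF at 50 ng/mL and replated on day 6. The 3 animals each gave 1 culture to each group, and total RNA of each culture was hybridised to 1 Affymetrix mouse exon array. The values are log2 array signals per transcript, which ran from 5.84 to 14.38 over all arrays. A log2 difference of 1 is a 2-fold difference. Lineage markers of macrophages and of other marrow cells could not be read, because the remaining rows have no gene names, so the purity of the cultures was not tested.

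TLR4 signals through the adaptor MyD88 to NF-kB and AP-1, and through the adaptor TRIF to IRF3 and the type I interferons, which then act on the cell through STAT proteins. Surface molecules induced along these routes let a macrophage engage T cells. CD69 is a C-type lectin-like transmembrane protein used as an early activation marker of lymphocytes and myeloid cells, and it binds the sphingosine-1-phosphate receptor S1PR1 in lymphocytes and takes it off the surface. CD40 is a member of the TNF receptor superfamily that binds CD40 ligand on T cells, recruits TRAF adaptors and supports antigen presentation and cytokine release. CD274, also called PD-L1, is a B7 family ligand of PD-1 and restrains T cells that carry that receptor.

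The RefSeq gene table of GRCm38.p6 gives the neighbours of each gene. The protein-coding genes on either side of Cd69 are Clec2d and Clec2m, which encode further C-type lectin-like proteins. Those beside Cd274 are Plgrkt and Pdcd1lg2, and Pdcd1lg2 encodes PD-L2, the other ligand of PD-1. Cd40 lies between Ncoa5 and Cdh22. The signals of these neighbours were not analysed here, since their rows could not be named.

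Of the 3 genes, 1 had an entry in the RefSeq promoter table, and the 250 bases before its annotated start are shown because they are the sequence at hand for a gene whose transcript was over 16-fold higher with LPS. They lie at chr19:29367188-29367437 on the plus strand of GRCm38.p6 and are printed 5′ to 3′, with a GC box in capitals.
Cd274 promoter: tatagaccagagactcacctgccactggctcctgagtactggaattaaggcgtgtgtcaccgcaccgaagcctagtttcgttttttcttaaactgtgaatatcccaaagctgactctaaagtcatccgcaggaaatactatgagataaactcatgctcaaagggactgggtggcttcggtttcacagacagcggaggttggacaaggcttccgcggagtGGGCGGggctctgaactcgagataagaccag
The GC box, GGGCGG, is the binding sequence of Sp1-type factors. It was added to the search after the sequence had been read. It begins at position -31, counted back from the annotated start, and 32.7% of the 32851 promoter windows of that length hold it on either strand. The other motifs searched on both strands had no match in this window. They were the core of the interferon-stimulated response element (found in 2.98% of windows), the gamma-activated sequence TTCNNNGAA of STAT factors (7.02%), the AP-1 sequence TGANTCA (6.75%), the TATA box TATAAA (12.4%) and the kB consensus of NF-kB (3.9%). The GC box therefore overlapped no other match. The GC content of the window was 50.4%, against a median of 52.4% over all windows.

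Over all rows, the 3 LPS arrays and the 3 Unstim arrays stood apart. Pearson's r across rows, which are not independent, was 0.986 to 0.993 for the 6 pairs of arrays within a group and 0.910 to 0.926 for the 9 pairs between groups. The median of an array was 7.75 to 7.77 in the LPS group and 7.91 to 7.92 in the Unstim group, a shift of -0.15 that is not removed from the differences below. Limma, with Benjamini-Hochberg adjustment over all rows, called 23667 rows (32.0%) at an adjusted p below 0.05, of which 6472 (8.75% of all rows) were higher with LPS and 17195 lower. With each array centred on its median, the counts were 23708 higher and 11887 lower. Among all rows, 5192 shared all 6 values with another row, so counts and ranks here are of rows and not of separate genes. Both requirements, an adjusted p below 0.05 and a difference of at least 2-fold upward, were met by 2222 rows (3.00%), and at least 16-fold by 78 rows (0.105%). All 3 genes were among the 78, a count that their selection on this contrast leaves without weight. In bulk RNA, a change in the number of expressing cells and a change in the RNA per cell cannot be told apart.

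**Figure D1:**
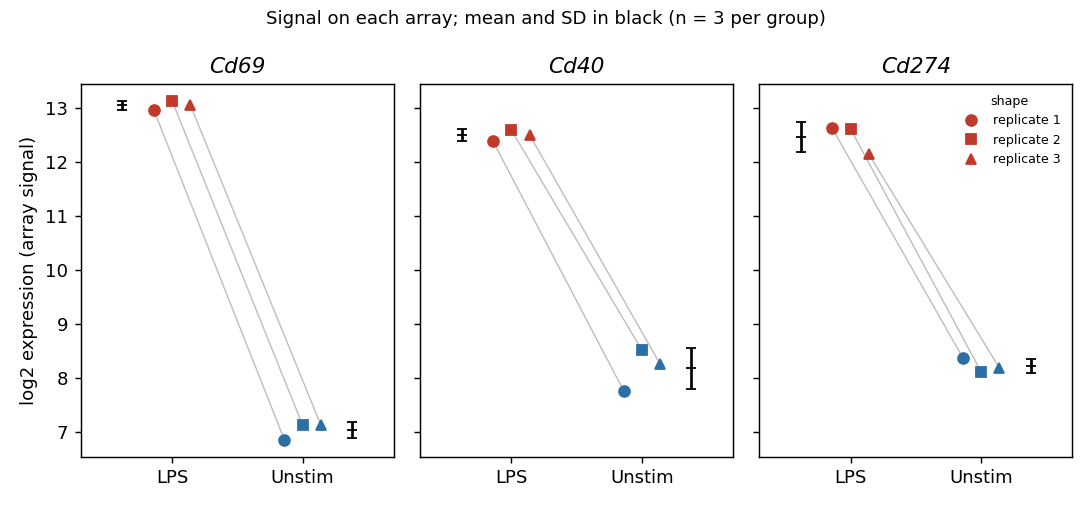
Log2 expression (array signal) of Cd69, Cd40 and Cd274 on each array, with the LPS group left of the Unstim group in each panel. Symbols give the replicate number, grey lines join same-numbered arrays, and black bars give mean and SD (n = 3 per group). Every LPS array lies above every Unstim array for each gene, and the Unstim arrays are most spread for Cd40.

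Cd69 was the member with the largest difference. Its log2 expression was 12.97, 13.14 and 13.06 on LPS arrays 1, 2 and 3, against 6.86, 7.13 and 7.13 on Unstim arrays 1, 2 and 3. All LPS arrays were high and all Unstim arrays low, and the lowest LPS value exceeded the highest Unstim value by 5.84. The means were 13.06 ± 0.084 with LPS and 7.04 ± 0.15 without (SD, n = 3 each). The difference was 6.02 ± 0.09 (SE from limma's fit over all rows, without the pairing), or 64.9-fold, with 61.0-fold and 69.1-fold at 1 SE to either side. Of the 74007 rows, 2 had a larger rise, of 73.4-fold and 70.8-fold.

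The size of the Cd69 fold depends on how the dim end of the scale is read. Without a detection call, a low Cd69 signal in unstimulated cells cannot be told from background. After subtraction of each array's 1st percentile on the linear scale, as an estimate of background and a setting chosen after seeing the data, the difference was 7.25 ± 0.19 (SE), or 152-fold. With an offset of 16 added before the logarithm it was 5.86, or 57.9-fold.

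Cd40, the receptor for CD40 ligand, was also higher on every LPS array. Its log2 expression was 12.39, 12.60 and 12.51 on LPS arrays 1, 2 and 3, against 7.77, 8.52 and 8.26 on Unstim arrays 1, 2 and 3. The groups were separated by 3.87 at their closest, and Unstim array 1 was low and Unstim array 2 high within its group. The means were 12.50 ± 0.11 with LPS and 8.18 ± 0.38 without (SD, n = 3 each). They differed by 4.32 ± 0.18 (SE), which is 19.9-fold and the 45th largest rise of all rows.

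Cd274, the PD-1 ligand, had log2 expression of 12.63, 12.62 and 12.15 on LPS arrays 1, 2 and 3. On Unstim arrays 1, 2 and 3 it was 8.38, 8.12 and 8.19. LPS array 3 was the low one of its group, and the groups were 3.78 apart at their closest. The Unstim arrays spanned 0.25, against 0.47 for the LPS arrays. The means were 12.47 ± 0.27 with LPS and 8.23 ± 0.13 without (SD, n = 3 each). They differed by 4.24 ± 0.14 (SE), which is 18.9-fold and the 53rd largest rise.

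**Figure D2:**
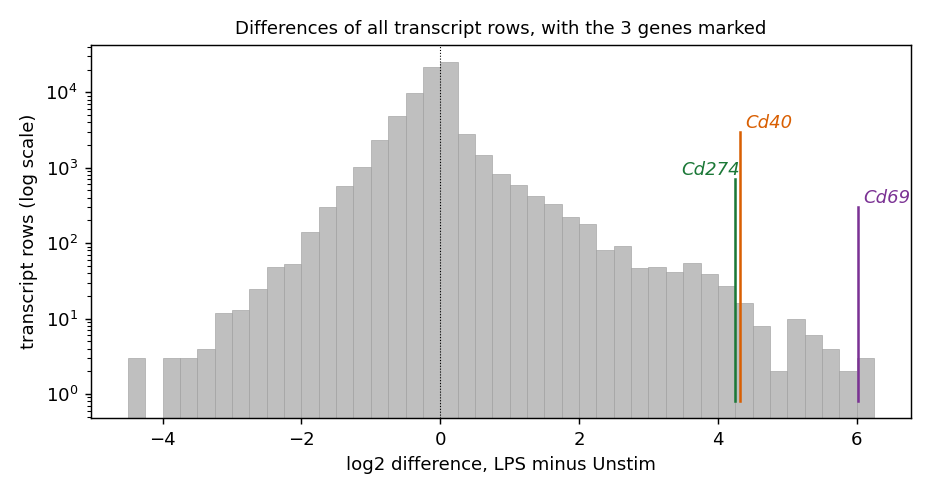
Number of transcript rows (log scale) by log2 difference, LPS minus Unstim, in bins of 0.25 over all 74007 rows, with vertical lines at the 3 genes. Cd274 at 4.24 and Cd40 at 4.32 stand side by side in the upper tail, and Cd69 at 6.02 stands near its end.

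Cd69 had the largest difference of the 3 genes in every pair of same-numbered arrays, while the order of Cd40 and Cd274 varied. The difference within pairs 1, 2 and 3 was 6.11, 6.01 and 5.93 for Cd69. For Cd40 it was 4.61, 4.09 and 4.25, and for Cd274 it was 4.25, 4.49 and 3.97. Cd69 exceeded Cd40 by 1.5, 1.93 and 1.68 in the 3 pairs, and Cd274 by 1.86, 1.52 and 1.97. Cd40 exceeded Cd274 by 0.36 in pair 1 and 0.28 in pair 3, while in pair 2 the gap was -0.41. The mean gap between Cd40 and Cd274, 0.08, was smaller than its SD over the 3 pairs of 0.42, and the order also turned without LPS array 3 (4.31 for Cd40, 4.39 for Cd274) and without Unstim array 1 (4.11 and 4.31). The costimulatory receptor and the inhibitory ligand thus had differences that these arrays do not put in order. Signals of different rows depend on their probes, so the levels of the 3 genes are not compared with each other. Whether the size of the differences also depends on the probes was not tested.

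**Figure D3:**
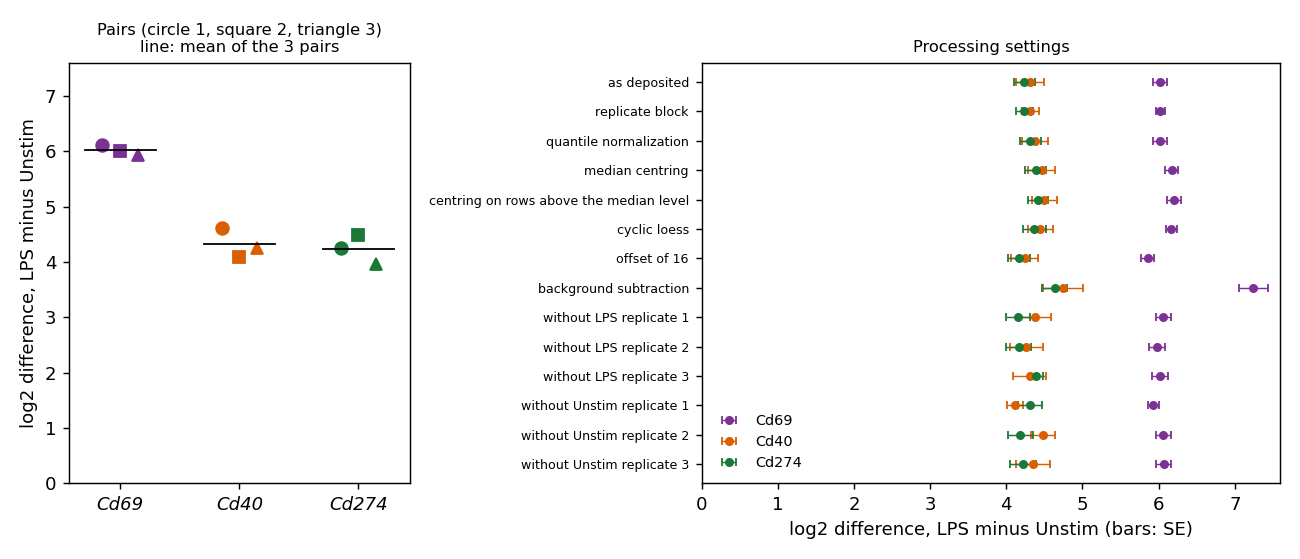
Left, log2 difference (LPS minus Unstim) of each gene in each same-numbered pair of arrays, with the mean of the 3 pairs as a line. Right, the same difference with its SE (bars) as deposited and under each other setting, where Cd69 stays above Cd40 and Cd274, and the largest move is that of Cd69 to 7.25 with background subtraction.

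The spread between arrays of a group does not use the LPS contrast, and it differed among the genes. Each gene's SD was set beside those of the 1000 rows nearest to it in group mean, as a description. In the Unstim arrays those rows had means of 7.02 to 7.06 for Cd69, 8.15 to 8.21 for Cd40 and 8.20 to 8.26 for Cd274. In the LPS arrays they ran more widely, over 11.99 to 13.95, 11.93 to 13.07 and 11.91 to 13.02, so the LPS percentages are the coarser comparison. In the Unstim arrays the SD of Cd40, 0.377, was larger than that of 99.2% of such rows, whose median was 0.0926. The Unstim SD of Cd69, 0.154, was larger than that of 95.7% (median 0.0509), and that of Cd274, 0.131, larger than that of 73.1% (median 0.0886). In the LPS arrays it was Cd274 that varied most, with an SD of 0.271 above that of 94.5% of its 1000 rows (median 0.118). Cd40, at 0.108, was above 45.8% and Cd69, at 0.0836, above 32.8%. Leaving out the array farthest from the mean of 3 always lowers the SD, so the following values are a description only. Without Unstim array 1 the SD of the other 2 Unstim arrays was 0.18 for Cd40, 0.0017 for Cd69 and 0.043 for Cd274. Without LPS array 3 that of the other 2 LPS arrays was 0.0083 for Cd274. The SE of the LPS difference was then 0.11 for Cd40, against 0.18 with all arrays, and 0.088 for Cd274, against 0.14. Leaving out Unstim array 2 or 3 gave SDs of 0.34 and 0.52 for Cd40. Leaving out LPS array 1 or 2 gave 0.33 and 0.34 for Cd274.

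**Figure D4:**
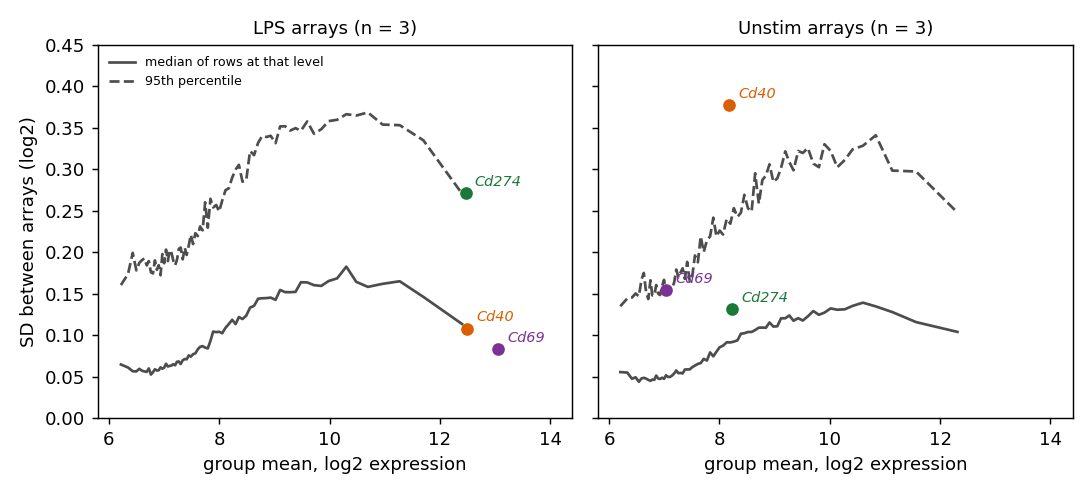
SD between the 3 arrays of a group against the group mean in log2 expression, LPS arrays on the left and Unstim arrays on the right. The solid line is the median and the dashed line the 95th percentile of all rows by level, and Cd40 in the Unstim arrays (0.377) lies farthest above the dashed line.

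For Cd40, arrays of the same replicate number deviated in the same direction in both groups. The deviations from the group mean were -0.11, 0.10 and 0.01 on LPS arrays 1, 2 and 3 and -0.41, 0.33 and 0.08 on the Unstim arrays. For Cd69 the deviations were -0.09, 0.08 and 0.0 on the LPS arrays and -0.18, 0.09 and 0.09 on the Unstim arrays, with array 1 the lowest of each group. For Cd274 they were 0.16, 0.15 and -0.31 on the LPS arrays and 0.15, -0.1 and -0.04 on the Unstim arrays. Array 1 was the highest of both groups, while array 2 lay above the mean with LPS and below it without. Whether the replicate number accounted for a difference was tested with limma's moderated F test in a fit with group and number. The adjusted p over all rows was 0.363 for Cd40, 0.384 for Cd69 and 0.485 for Cd274, and the unadjusted p was 0.0456, 0.0591 and 0.134 in the same order. In that limma test 0 of 74007 rows (0%) passed at an adjusted p below 0.05, and 9996 did at an unadjusted p below 0.05. The latter is a larger share than the 0.05 such a threshold passes with no difference, though rows are not independent. The unadjusted count was 4341, 8880 and 14274 without replicate 1, 2 and 3. At the adjusted threshold a difference between replicate numbers was thus not shown for these genes, and the 3 arrays per group limit the precision.

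Rows that behave like the 3 genes were sought by the Euclidean distance between the 6 values of a row, each less the row's mean. No row shared all 6 values with a member. The row nearest to Cd40 was ENSMUST00000109305_at, at a distance of 0.0223 over 6 arrays. It read 12.42, 12.65 and 12.57 on LPS arrays 1, 2 and 3, against 7.82, 8.56 and 8.32 on Unstim arrays 1, 2 and 3, and so lay within 0.061 of the Cd40 row on every array. In all, 5 rows lay within 0.3 of the Cd40 row on every array, with log2 differences of 4.18 to 4.36, values that the closeness asked of them nearly fixes. Whether they are read by the same probes as the Cd40 row was not tested, for want of the probe-set definitions.

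The row nearest to Cd274 was ENSMUST00000128615_at, at a distance of 0.152. It read 10.94, 10.79 and 10.44 on LPS arrays 1, 2 and 3, against 6.66, 6.50 and 6.43 on Unstim arrays 1, 2 and 3. Its difference of 4.19 was close to that of Cd274, and LPS array 3 was likewise the low one of its group, while its signal was lower by 1.6 to 1.8 on each array. Within 0.3 on every array, the limit used for Cd40, lay 1 row for Cd274 (log2 difference 4.06) and 0 rows for Cd69. For Cd69 the nearest row stood at 0.265, and the 10th nearest at 0.868, against 0.350 for Cd40 and 0.425 for Cd274. The distance includes the LPS difference itself, and few rows had a difference as large as that of Cd69. These rows were chosen for likeness over the same 6 arrays, and neither identifier is paired with a gene name in the tables used here.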

How the data were processed

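The authors deposited log2 expression values for transcript-level probe sets, 1 column per array, per the labels and design text. PLIER and Affymetrix Power Tools appear in the submitters' processing notes. Not given in the sources used here are tool versions, probe-set definitions, the genome build, and whether an offset was added or arrays were normalized to each other. Groups and replicate numbers came from the sample titles. Limma 3.58.1 in R 4.3.3 (lmFit, eBayes, two-sided) was fitted to all 74007 rows and 6 arrays without filter or further normalization and was tested on simulated data; differences are LPS minus Unstim. Adjusted p-values are Benjamini-Hochberg over all rows. The series text gives each animal 1 culture per group, and the deviations from the group mean correlated across rows at 0.50, 0.30 and 0.12 for arrays of equal number. Each is above 0.1, and equal numbers were treated as pairs in the within-pair differences. That limit does not single out pair 3, since LPS array 3 correlated more with Unstim array 2 (0.21). The main fit, its SEs and its calls did not use the pairing, and the replicate block was fitted as an alternative. The named rows, beside the 3 genes, are the row nearest to any gene and the nearest to a different one. The members, lists and settings were chosen with earlier results of these data known. Lists of pathway genes and cell type markers were not used, for want of gene names. Promoters came from RefSeq (GRCm38.p6). Figures used matplotlib 3.10.9.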

Additional observations from a re-analysis of the deposited data

How the results depend on the processing

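The differences of Cd69, Cd40 and Cd274 were positive under every setting tried, which their choice on this contrast makes likely. For Cd69 the difference of 6.02 became 6.17 with median centring, 6.20 with centring on the rows above the median level, 6.17 with cyclic loess, 5.86 with an offset of 16 and 7.25 with background subtraction, the last added after seeing the data. Background subtraction gave 4.74 for Cd40 and 4.64 for Cd274; the other settings moved these by less than the SD within groups pooled over both groups (0.28 for Cd40 and 0.21 for Cd274). Leaving out each array in turn gave 5.93 to 6.07 for Cd69, 4.11 to 4.48 for Cd40 and 4.16 to 4.39 for Cd274. The replicate block left the differences at 6.02, 4.32 and 4.24, with SEs of 0.057, 0.11 and 0.11, and called 7210 rows higher and 19074 lower, changing no count by over 1.5 times. Over all rows, 6472 higher calls became 25171 with centring on the rows above the median level, 23708 with median centring, 10499 with cyclic loess and 9768 with quantile normalization. With cyclic loess and with centring on the rows above the median level, 17195 lower calls became 11053 and 10827, and 2183 lower calls of at least 2-fold became 1401 and 1397; the cause was not tested. The adjusted p of the replicate-number test lay between 0.188 and 0.959 without 1 number. The lack of a detection level limits how dim signals can be read.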
